A study of Mus musculus with 16 samples.

Results

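Acetylation of histone H3 at lysine 27 (H3K27ac) was compared between 2 mouse medulloblastoma genotypes, and the regions described here are those called for this mark only in SmoM2 tumours. They were chosen by the H3K27ac calls themselves, as the regions of the authors' SmoM2 list on chromosomes 1 to 19 that are at least 500 bp wide and share no base with any region of the DKO H3K27ac list. This gave 948 regions, called SmoM2-only here, out of 21630 in the SmoM2 list and out of 11053 that met the same limits of width and chromosome (8.58%). The other 10105 of those 11053 shared at least 1 base with a DKO region and are called the other SmoM2 regions. The mirror class, DKO regions under the same limits that share no base with a SmoM2 region, held 2887 of 14198 regions.

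The SmoM2 tumours overexpressed SmoM2, a form of the Hedgehog signal transducer Smoothened that is active without ligand, and the DKO tumours had lost both Sufu and Spop. Both were taken from mice at postnatal day 13, and the series held 2 libraries for each of Gli2, H3K27ac, H3K36me3 and input in each genotype, 16 in all. The sources used here state neither the promoter or Cre line behind the alleles nor the number and sex of the animals. Each genotype and antibody is represented by 1 peak list for its 2 libraries, so comparisons between genotypes rest on single lists with no spread between replicates. How many reads each list came from is unknown, and a mark may be present below the calling threshold where no region is listed. Errors of shares are 95% Wilson intervals, and those of differences between shares 95% Newcombe intervals. They cover counting error only and treat regions as independent, although neighbours may not be. The labels' protocol also names an Olig2 antibody that no sample lists.

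H3K27ac is laid down by the acetyltransferases p300 and CBP and marks active promoters and enhancers. H3K36me3 is laid down behind elongating RNA polymerase II, so that it covers the bodies of transcribed genes and is usually low at their promoters. Gli2 is the main activating transcription factor of the Hedgehog pathway. Sufu holds Gli proteins in an inactive complex, and Spop marks them for degradation through the Cul3 ubiquitin ligase. In granule cell progenitors of the cerebellum this pathway drives proliferation, and its constitutive activity gives rise to medulloblastoma of the Hedgehog type. No annotation of the authors' build, mm9, was used, so genes at the positions below are not analysed here, and neither the tissue label nor other cell types could be checked against marker genes.

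The SmoM2-only regions were narrow and weakly called, which is given as a description, since width and overlap chose them. Their width had a median of 649 bp (quartiles 555 and 843 bp, widest 3790 bp), against 1093 bp for the other SmoM2 regions. Only 152 reached 1000 bp and 9 reached 2000 bp. The authors' −log10 q had a median of 1.83 and a maximum of 6.38 in SmoM2-only regions, against a median of 3.57 and a maximum of 56.9 in the other SmoM2 regions. The authors' fold enrichment over background had a median of 3.47 (2.12 to 5.26) in SmoM2-only regions, against 4.27 in the others. They covered 714 kb, which was 4.45% of the sequence in SmoM2 regions under the same limits. With these 11053 regions divided into 10 parts by −log10 q, SmoM2-only regions made up 36.1% of the lowest part and 19.9% of the next. The highest part, with −log10 q from 8.42 upwards, held 0 of 1106. The DKO-only regions were also narrow, with a median width of 722 bp. Their −log10 q in the DKO list reached higher, with a median of 2.32 and a maximum of 29.9.

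Both limits of the choice had many regions close to them. The narrowest region kept was 500 bp wide (1 region, −log10 q 1.48), and 5 regions of 499 bp (median −log10 q 2.01) were left out. Without the width limit there were 5599 SmoM2-only regions on the same chromosomes, of which 4651 were narrower than 500 bp. The smallest gap to a DKO region among those kept was 1 bp (1 region, −log10 q 1.83). Among the regions left out for sharing bases, the smallest overlap was 2 bp (1 region, −log10 q 3.17), 11 shared fewer than 10 bp and 124 fewer than 100 bp.

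The distance to the nearest DKO H3K27ac region had a median of 6.47 kb, with quartiles of 949 bp and 27273 bp. By distance, 242 regions (25.5%) lay less than 1 kb from a DKO region, 309 (32.6%) at 1 to 10 kb, 325 (34.3%) at 10 to 100 kb and 72 (7.59%) at 100 kb or more. Width and −log10 q hardly differed between these classes, with median widths of 637 to 674 bp and median −log10 q of 1.80 to 1.87. For 529 of the 948 regions (55.8%) the nearest DKO region overlapped another SmoM2 region, so that it belonged to a site called in both genotypes. For the other 419 it was itself called only in DKO tumours. That was the case for 130 of the 242 closest regions, where separate SmoM2 and DKO calls lay side by side without a shared base. The nearest DKO regions were of any width. The share called only in DKO tumours over the whole DKO list was not computed, so these counts are a description. The DKO-only regions had a median distance of 12.0 kb to SmoM2 acetylation, and 15.1% of them were within 1 kb, but the SmoM2 list they were measured against holds fewer regions (21630) than the DKO list (29504). With the DKO list shortened to that length by −log10 q, the SmoM2-only median was 11403.5 bp, so the distances of the 2 classes are not compared further.

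**Figure D1:**
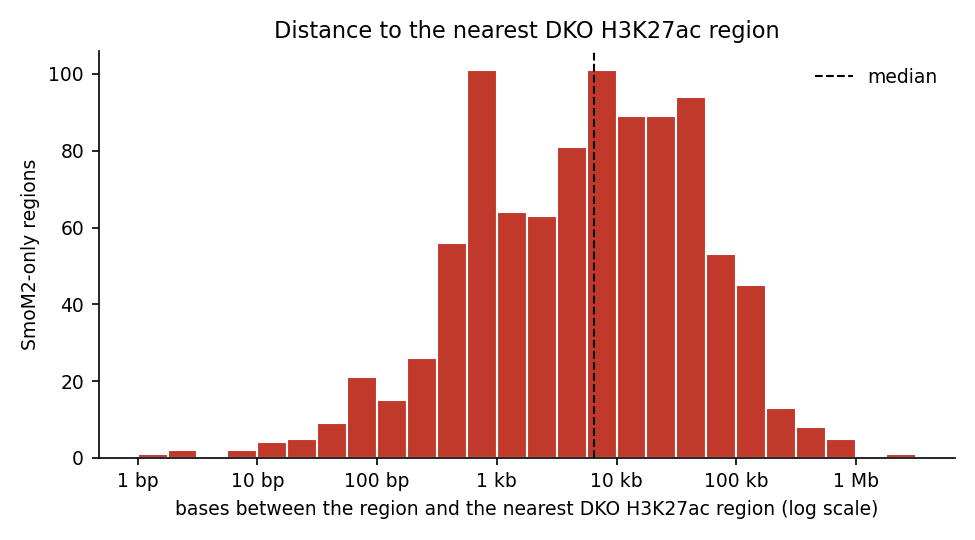
Histogram of the number of bases between each of the 948 SmoM2-only H3K27ac regions and the nearest DKO H3K27ac region on a log scale, with the median (6.47 kb) as a dashed line. Distances run from 1 bp to 2831 kb, with 242 regions under 1 kb and 72 at 100 kb or more.

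SmoM2-only regions were found on all 19 autosomes and mostly lay apart from one another. They made up between 6.46% of the SmoM2 regions under the same limits on chromosome 7 (49 of 758, 4.92–8.44%) and 10.8% on chromosome 12 (50 of 463, 8.29–14.0%). When SmoM2-only regions at most 10 kb apart were linked, 834 stayed alone and 114 (12.0%) fell into 56 groups, of which 54 held 2 regions and 2 held 3. Only SmoM2-only regions were linked, and the linking was not run on the other classes. Other acetylation could lie close, as 402 of the 948 (42.4%) were within 10 kb of a SmoM2 region that overlaps DKO acetylation. The groups of 3 lay at chr4:107493221-107503998 and chr14:10635578-10645715. The chromosome 4 group held 3101 bp in SmoM2-only regions and 1 DKO Gli2 peak. No DKO H3K27ac region overlapped it, and no H3K36me3 region of either genotype did. The chromosome 14 group spanned 10.1 kb and held 3269 bp in SmoM2-only regions, 2 DKO H3K27ac regions between them and no Gli2 peak. Next in order of position, among the groups of 2, came chr1:136228853-136239440 with 2 DKO H3K27ac regions between its members. The groups at chr1:158893680-158895343 and chr1:162208926-162217516 each held 1 DKO Gli2 peak and no DKO H3K27ac region. In stretches of 1 Mb, most of those with a SmoM2-only region held just 1 (398 of 617), and the most was 8, at chr11:118000001-119000000, among 28 SmoM2 regions there.

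The 10 SmoM2-only regions with the highest −log10 q ranked between 2023 and 4017 of the 11053 SmoM2 regions, so that none was among the 1106 with the highest values. The highest, at chr14:103481392-103482701 (1310 bp, fold enrichment 5.13, −log10 q 6.38), lay 11.7 kb from the nearest DKO region. H3K36me3 regions of both genotypes overlapped it, over 1278 bp in SmoM2 and the whole 1310 bp in DKO tumours. The second, at chr1:158893680-158894345 (666 bp, −log10 q 6.17), lay 23.7 kb from DKO acetylation and 125 bp from a DKO Gli2 peak. The third, at chr2:149562837-149563431 (595 bp, −log10 q 5.48), lay 0.935 kb from a DKO-only region and 376 kb from H3K36me3 of either genotype.

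The rest of these 10 differed in their surroundings. Those at chr3:97627827-97629366, chr15:59110093-59111481 and chr17:31523267-31524007 lay 4.16, 35.2 and 7.45 kb from DKO acetylation. The regions at chr5:104994991-104995866 and chr17:27636621-27637321 lay 4.55 and 0.124 kb from it. At chr11:106683596-106684712, 0.584 kb from DKO acetylation, H3K36me3 of both genotypes was called, over all 1117 bp in SmoM2 and 696 bp in DKO tumours. The fourth in rank, chr7:28930690-28934479, was also the widest of all SmoM2-only regions and is described with Gli2.

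Width and isolation picked out other regions. After the chromosome 7 region the widest were chr12:85910874-85914030 (3157 bp), chr19:46519922-46522956 (3035 bp), chr17:10587936-10590140 (2205 bp) and chr10:77627862-77629985 (2124 bp). The chromosome 10 region lay wholly within H3K36me3 of both genotypes. The most isolated, chr1:116592646-116593190 (545 bp, −log10 q 1.53), was 2831 kb from the nearest DKO H3K27ac region, 244 kb from SmoM2 H3K36me3 and 3597 kb from DKO H3K36me3. The region at chr7:64845942-64846761 was 807 kb from DKO acetylation, about as far from H3K36me3 of SmoM2 (199 kb) as of DKO tumours (201 kb). A neighbouring pair, chr12:121184536-121185475 and chr12:121196737-121197731, lay 706 and 719 kb from DKO H3K27ac. Their nearest H3K36me3 region was 49.8 and 37.5 kb away in SmoM2 tumours, and 740.0 and 752 kb away in DKO tumours. The fifth, chr19:33466015-33466693, was 633 kb from DKO acetylation and 570 kb from H3K36me3 of both genotypes.

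Few SmoM2-only regions carried a Gli2 peak. A SmoM2 Gli2 peak overlapped 3 of 948 (0.316%, 0.108–0.926%), against 0.570% of all 11053 SmoM2 regions, with an interval that includes that share. DKO Gli2 peaks overlapped 14 (1.48%, 0.882–2.46%), against 5.17% of all 11053 and 557 of the 10105 other SmoM2 regions (5.51%, 5.08–5.97%). The difference from the other SmoM2 regions was −4.04 points (−4.79 to −2.96). The difference was smaller at matched width. Among regions narrower than 1000 bp the share was 0.879% of 796 SmoM2-only regions against 1.79% of 4477 others, a difference of −0.91 points with an interval that includes 0 (−1.53 to 0.081). Among regions with −log10 q under 2.5 it was −1.09 points (−1.99 to 0.120). DKO-only regions had nearly the same share of DKO Gli2 peaks (39 of 2887, 1.35%, against 4.37% of all 14198 DKO regions under the same limits), with a difference of 0.126 points (−0.645 to 1.18). A SmoM2 Gli2 peak lay within 10 kb of 8 SmoM2-only regions (0.844%), against 1.28% of all 11053, and a DKO Gli2 peak within 10 kb of 72 (7.59%), against 11.5% of all.

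**Figure D2:**
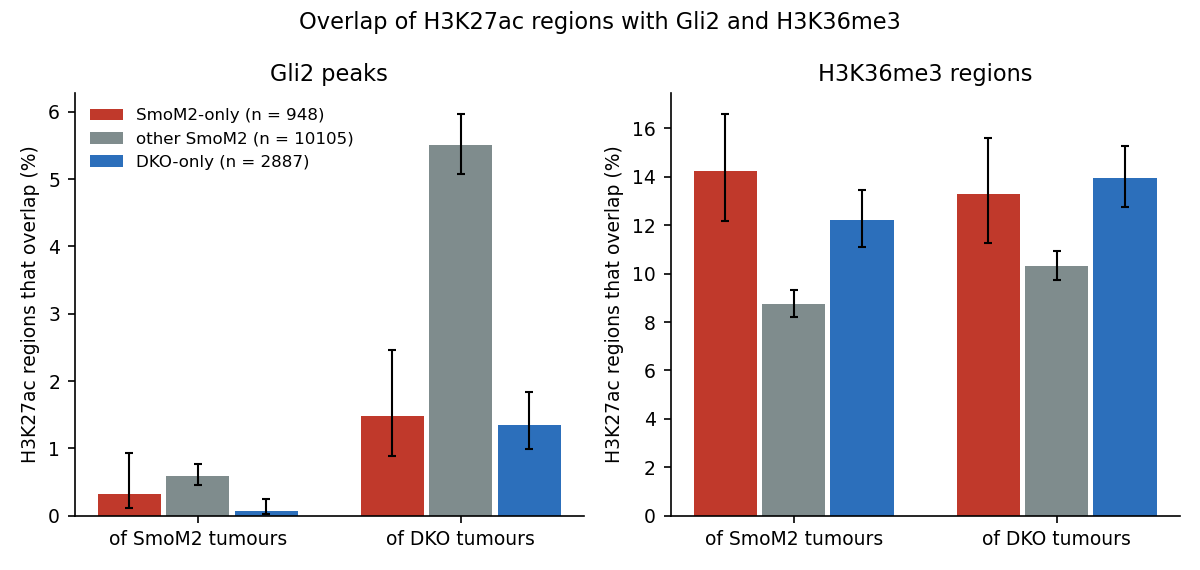
Percentage of H3K27ac regions that share at least 1 base with a Gli2 peak (left) or an H3K36me3 region (right) of each genotype, for SmoM2-only, other SmoM2 and DKO-only regions of at least 500 bp on autosomes, with Wilson 95% intervals as error bars. DKO Gli2 peaks overlap 1.48% of SmoM2-only and 5.51% of other SmoM2 regions, and SmoM2 H3K36me3 overlaps 14.2% and 8.74%.

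Each of the 14 regions held 1 DKO Gli2 peak, so Gli2 was called there in DKO tumours while H3K27ac was called only in SmoM2 tumours. Of these 14 DKO peaks 11 had no counterpart in the SmoM2 Gli2 list. That list holds only 149 peaks, against 1426 in the DKO list, so most DKO peaks can have no counterpart in it. The share without one over the whole DKO list was not computed. All 14 together ran from rank 17 to rank 1300 of 1426 in the DKO list by −log10 q, with a median fold enrichment of 10.2 against 9.57 for the 1397 autosomal DKO peaks. The highest lay in chr17:31562594-31563804 (1211 bp), where the Gli2 peak at chr17:31563352-31563600 ranked 17th with a fold enrichment of 35.9. The nearest DKO H3K27ac region was 6.13 kb from that peak. In chr5:141018199-141020222 (2024 bp) the peak ranked 31st (fold 30.4) and lay 58.3 kb from DKO acetylation. The peak in chr5:134549124-134550219 ranked 114th (fold 20.0), at 25.3 kb.

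At 3 regions Gli2 was called in both genotypes. In chr3:143529600-143530131 the fold enrichment of the peak was 9.17 in the SmoM2 list (rank 50 of 149) and 20.4 in the DKO list (rank 106). This region was 335 kb from DKO acetylation, with no H3K36me3 of either genotype within 50 kb. In chr18:80586930-80587811 the fold was 6.67 in the SmoM2 (rank 103) and 16.1 in the DKO list (rank 242). In the widest region, chr7:28930690-28934479, the Gli2 fold was 5.00 in SmoM2 (rank 133) and 5.71 in DKO tumours (rank 1300), low in both lists. Its nearest DKO acetylation, 4.63 kb away, was a region of 151 bp.

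The other 8 regions with a DKO Gli2 peak fall into those beside DKO acetylation and those away from it. Close to it lay chr1:136547914-136548566, chr7:151464485-151465028, chr12:8919495-8920211 and chr16:85680384-85681328, at 27 to 288 bp, each next to a narrow DKO-only region (113 to 340 bp). There the Gli2 peaks stood 335 to 729 bp from that region, with folds between 6.87 and 11.3. Farther away were chr9:34712642-34713611 (2.50 kb), chr5:36457595-36458939 (13.8 kb), chr4:107493221-107494536 (14.1 kb) and chr11:35096572-35097735 (161 kb). Their Gli2 folds were 9.08, 6.52, 8.68 and 12.6.

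H3K36me3 overlapped SmoM2-only regions more often than the other SmoM2 regions. SmoM2 H3K36me3 overlapped 135 of 948 (14.2%, 12.2–16.6%), against 9.21% of all 11053 and 8.74% (8.20–9.30%) of the other SmoM2 regions, a difference of 5.50 points (3.35 to 7.93). DKO H3K36me3 overlapped 126 (13.3%, 11.3–15.6%), against 10.6% of all and 10.3% of the others, a difference of 2.96 points (0.856 to 5.34). The DKO difference lost its call under another grouping (0.948 points, −1.28 to 3.57). There, regions less than 1 kb from DKO acetylation were counted with the other SmoM2 regions. The SmoM2-only regions were narrower and so had fewer bases with which to touch another region. Among regions narrower than 1000 bp the contrast was wider for both, with 13.6% against 5.20% for SmoM2 H3K36me3 (8.36 points, 6.05 to 10.99). For DKO H3K36me3 it was 12.7% against 6.08% (6.61 points, 4.35 to 9.19). With −log10 q of at least 3, which left 62 SmoM2-only regions, the difference was 0.073 points for SmoM2 H3K36me3 (−4.55 to 9.56) and −3.14 for DKO H3K36me3 (−7.13 to 5.88). Among touching regions, SmoM2 H3K36me3 covered a median of 88.6% of a SmoM2-only region, 27.3% of an other SmoM2 region, which was wider, and 79.7% of a DKO-only region. For DKO H3K36me3 the medians were 100.0%, 34.4% and 100.0%, so deep cover was shared with the DKO-only regions.

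Between SmoM2-only and DKO-only regions no difference in these shares was detectable. Of the DKO-only regions, 12.2% overlapped SmoM2 H3K36me3, against 9.67% of all 14198 DKO regions, and 14.0% overlapped DKO H3K36me3, against 11.2% of all. The differences of SmoM2-only from DKO-only regions were 2.01 points (−0.411 to 4.64) and −0.668 points (−3.07 to 1.94), both with intervals that include 0.

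Outside H3K36me3, SmoM2-only regions were often far from it. Only 333 (35.1%, 32.2–38.2%) lay outside but within 10 kb of a SmoM2 H3K36me3 region, against 55.4% of all 11053 and 57.3% (56.3–58.2%) of the other SmoM2 regions, a difference of −22.2 points (−25.3 to −18.9). A further 480 (50.6%) were 10 kb or more away, against 35.4% of all, and 159 (16.8%) were 100 kb or more away, against 9.29% of all. DKO-only regions had similar shares at these distances from SmoM2 H3K36me3, 48.6% and 16.5%. The differences of SmoM2-only from DKO-only regions were 2.00 points (−1.66 to 5.66) and 0.250 points (−2.39 to 3.08), both with intervals that include 0. For DKO H3K36me3 the counts were 296 (31.2%) outside but within 10 kb against 53.2% of all, 526 (55.5%) at 10 kb or more against 36.2% of all, and 192 (20.3%) at 100 kb or more against 10.1% of all. Among regions with −log10 q under 2.5 the difference in SmoM2 H3K36me3 within 10 kb was smaller, at −13.2 points (−16.9 to −9.28). Of the DKO-only regions 39.1% lay outside but within 10 kb of SmoM2 H3K36me3, and SmoM2-only regions differed from them by −4.01 points (−7.49 to −0.453). For DKO H3K36me3 this difference was −8.82 points (−12.2 to −5.32), and at 10 kb or more from it 9.49 points (5.82 to 13.1). SmoM2-only regions were thus less often near DKO H3K36me3 than DKO-only regions were.

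**Figure D3:**
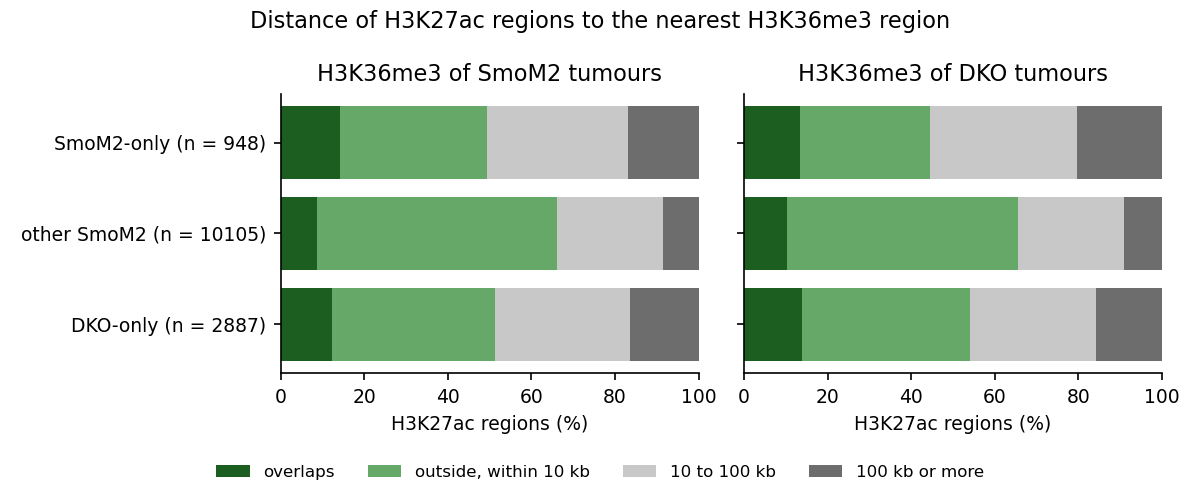
Stacked bars giving the percentage of H3K27ac regions that overlap an H3K36me3 region or lie outside it at under 10 kb, 10 to 100 kb, or 100 kb or more, for H3K36me3 of SmoM2 tumours (left) and DKO tumours (right). SmoM2-only regions have 35.1% outside but within 10 kb of SmoM2 H3K36me3, against 57.3% of the other SmoM2 regions, and 16.8% against 8.59% at 100 kb or more.

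Overlap with H3K36me3 varied with the distance to DKO acetylation. SmoM2 H3K36me3 overlapped 17.4% of SmoM2-only regions less than 1 kb from DKO acetylation, 20.4% at 1 to 10 kb and 9.23% at 10 to 100 kb, the last about the 9.21% of all 11053 regions. At 100 kb or more it overlapped 0 of 72 regions, which allows a share of up to 5.07%. DKO H3K36me3 gave 18.6%, 16.2%, 9.54% and 0 of 72, against 10.6% of all. The DKO-only regions showed a similar course by distance from SmoM2 acetylation, with SmoM2 H3K36me3 at 15.6%, 21.6%, 7.06% and 0.326%. DKO Gli2 peaks overlapped 4, 4, 4 and 2 SmoM2-only regions in the 4 classes, too few to compare.

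To ask whether the second mark was called in the same genotype as the first, regions that overlapped H3K36me3 of a single genotype were counted. Both genotypes had H3K36me3 at 109 SmoM2-only regions, SmoM2 tumours alone at 26 and DKO tumours alone at 17, against 7.54%, 1.67% and 3.05% of all 11053. The remaining 796 (84.0%, against 87.7% of all) overlapped no H3K36me3 region. The SmoM2 side thus made up 60.5% (45.6–73.6%) of the 43 such SmoM2-only regions, against 33.2% of 479 other SmoM2 regions and 34.2% of 158 DKO-only regions. The difference from the other SmoM2 regions was 27.3 points (11.8 to 41.1). It depended on how overlap was counted: taking the midpoint of each region gave 9.46 points (−5.55 to 27.02), and H3K36me3 regions with −log10 q of at least 3 gave −7.81 points (−16.7 to 7.97). With 43 regions this count is a weak basis.

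Over longer stretches more regions could be compared. Within 50 kb on each side of the centre, H3K36me3 covered more bases in SmoM2 than in DKO tumours around 258 SmoM2-only regions (27.2%, against 17.6% of all 11053) and fewer around 459 (48.4%, against 69.0% of all). No H3K36me3 was called in either genotype around 231 (24.4%, against 13.4% of all). Among the 717 with unequal length, the SmoM2 side made up 35.98% (32.6–39.6%), against 19.1% (18.2–19.9%) of 8850 other SmoM2 regions, a difference of 16.9 points (13.4 to 20.6). Among DKO-only regions it was 15.1%, 20.9 points lower than among SmoM2-only regions (17.1 to 24.7). The H3K36me3 lists themselves differed, with 89482 SmoM2 regions over 137 Mb of the autosomes and 67064 DKO regions over 163 Mb, and in each class more regions had the longer H3K36me3 in DKO tumours than in SmoM2 tumours. Around SmoM2-only regions the mean length per window was 11.6 kb for SmoM2 tumours against 12.9 kb for DKO tumours, and around the other SmoM2 regions 16.8 kb against 19.6 kb. The sums for SmoM2-only regions were 11001 kb for SmoM2 and 12247 kb for DKO tumours, a ratio of 0.898, against 0.855 around the other SmoM2 regions and 0.804 around DKO-only regions. Windows of neighbouring regions overlap, so their bases can be counted more than once.

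This contrast was present in the 3 classes of distance from SmoM2 H3K36me3 up to 100 kb. At 100 kb or more the window can hold none of it, so the SmoM2 side was 0 of 12 by construction. The window reaches only 50 kb from the centre, so the farther regions at 10 to 100 kb cannot fall on the SmoM2 side either. How many these were among SmoM2-only and other SmoM2 regions was not counted, so the difference at 10 to 100 kb is a description. Inside SmoM2 H3K36me3 the SmoM2 side was 20.0% for SmoM2-only and 11.3% for other SmoM2 regions (8.67 points, 2.38 to 16.5). Outside but within 10 kb it was 37.2% and 17.3% (19.9 points, 14.8 to 25.3), and at 10 to 100 kb 45.1% and 27.7% (17.4 points, 10.9 to 24.1). Among the 62 SmoM2-only regions with −log10 q of at least 3 the SmoM2 side was 65.96% of those with unequal length, 48.0 points above other SmoM2 regions of that −log10 q (33.7 to 59.9). With that limit set on the H3K36me3 regions instead, the SmoM2 side was 28.3% and the difference 6.81 points (2.78 to 11.2).

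**Figure D4:**
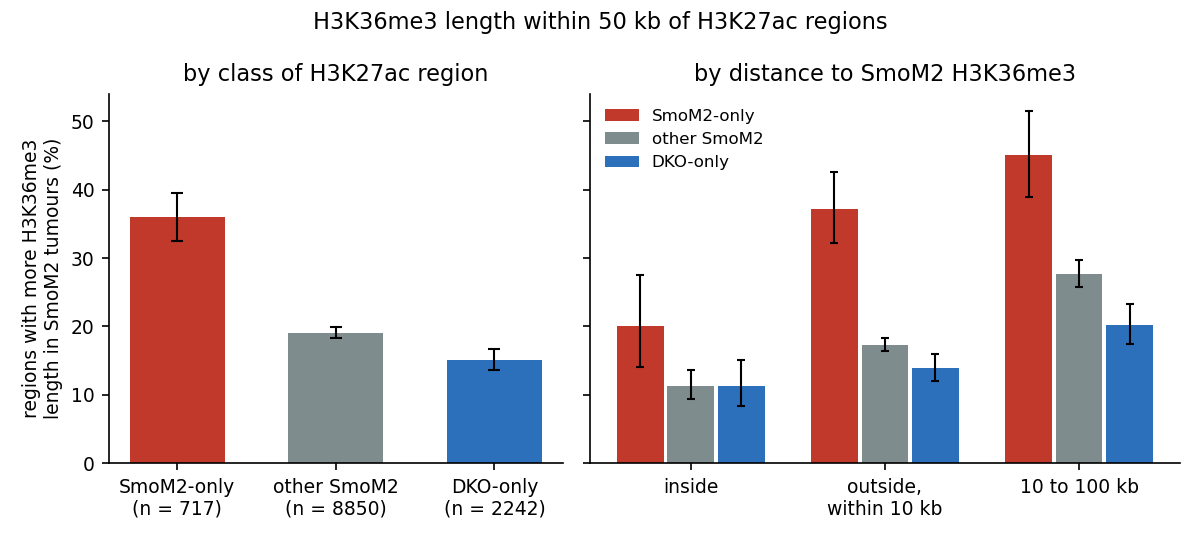
Percentage of H3K27ac regions with more H3K36me3 length in SmoM2 than in DKO tumours within 50 kb of their centre, among regions with unequal length, by class (left) and by class and distance to SmoM2 H3K36me3 (right), with Wilson 95% intervals as error bars. SmoM2-only regions reach 35.98%, against 19.1% of other SmoM2 and 15.1% of DKO-only regions.

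The surrounding acetylation, outside the region itself, is the same mark that chose the regions and is given as a description. Around 432 SmoM2-only regions (45.6%, against 20.3% of all 11053) SmoM2 tumours had more other H3K27ac bases within 50 kb. Around 422 (44.5%, against 76.9% of all) DKO tumours had more, and around 94 (9.92%, against 2.80% of all) neither list had any. Around the other SmoM2 regions DKO tumours had more in 79.9% of cases.

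Loci where both marks covered more in SmoM2 tumours, or where H3K36me3 was called at a region in SmoM2 tumours alone, are named here and were chosen after their values were seen, except the first, named above for its width. Around the widest region of chromosome 19, chr19:46519922-46522956, SmoM2 H3K36me3 covered 43.3 kb within 50 kb, against 28.3 kb for DKO tumours, and other H3K27ac covered 24.1 kb against 14.8 kb. The SmoM2-only regions chr19:46517452-46518476 and chr19:46547079-46547600 lay in the same neighbourhood. On chromosome 4, around chr4:107502717-107503998, SmoM2 H3K36me3 covered 24.0 kb against 9.17 kb for DKO tumours, and other H3K27ac 6.05 kb against 2.42 kb. The longest overlaps with H3K36me3 called only in SmoM2 tumours were at chr4:42096584-42097357 (774 bp), chr14:70713045-70713994 (653 bp) and chr18:80463557-80464138 (582 bp). Next came chr8:108474655-108475792 (520 bp) and chr12:45654778-45655370 (431 bp). At each of these 5 a DKO H3K36me3 region lay nearby, at most 1.48 kb away.

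**Figure D5:**
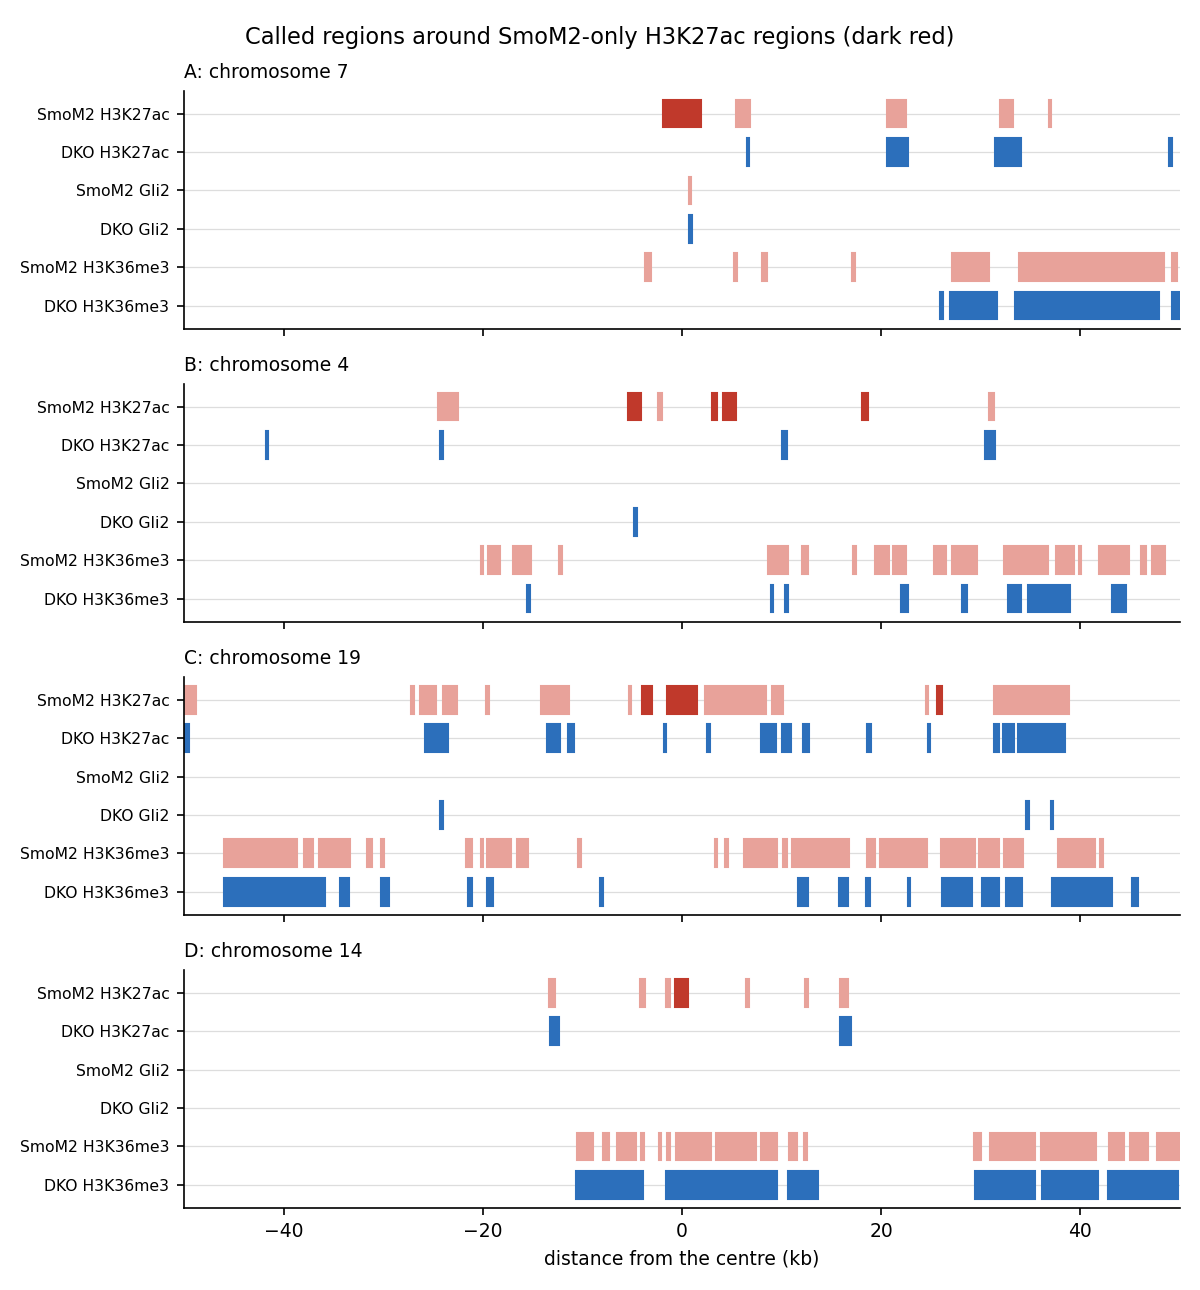
Called regions of the 6 lists within 50 kb of 4 SmoM2-only H3K27ac regions or groups, as distance from the centre in kb, with SmoM2-only regions in dark red, other SmoM2 calls in light red and DKO calls in blue (calls narrower than 0.25 kb are drawn at that width). Panel A shows the widest SmoM2-only region with Gli2 peaks of both genotypes, panel B the chromosome 4 group with a DKO Gli2 peak and 24.0 kb of SmoM2 against 9.17 kb of DKO H3K36me3, panel C the chromosome 19 locus, and panel D the region with the highest −log10 q, inside H3K36me3 of both genotypes.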

How the data were processed

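The libraries, 12 ChIP-seq and 4 input, fall into groups by labelled genotype and antibody. Per the labels, both libraries of a group share 1 deposited list, and how they were merged is not stated. The build is mm9, and the tools named are BWA, MACS2, Trimmomatic 0.36 and bedtools, per the submitters' processing notes. Fold enrichment, a ratio over the caller's background, and q as −log10 q are the authors' values for each region, as is the deposited score, which was not used. These values serve only to describe, rank or filter regions within a list. Read depth is unknown.

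Regions were counted as overlapping with at least 1 shared base. Distances ran from edge to edge and were checked against bedtools 2.31.1. H3K36me3 and other H3K27ac bases were summed within 50 kb of each region's centre. Shares were compared by Newcombe intervals (statsmodels 0.14.6, Python 3.11.15, numpy 2.4.6, pandas 2.3.3), and counting was tested on simulated lists. No test across samples was possible. The number of unused columns of per-sample values was 0. Plots were drawn with matplotlib 3.10.9.

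The regions and the measures were chosen with earlier results of these data known. Regions stand in for genes: named are the 10 with the highest −log10 q, the 5 widest, the 5 farthest from DKO acetylation, all with a Gli2 peak, and the 5 linked groups with the most members (ties by position). A gene table of another assembly was left unused, and no coordinates were converted. The alternatives tried were other widths, thresholds, overlaps, window sizes, joined regions, chromosomes and matched classes.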

Additional observations from a re-analysis of the deposited data

Results flagged for a closer look

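The sex chromosomes lay outside the comparison and are given as values. On chromosome X, 12 of 151 SmoM2 H3K27ac regions of at least 500 bp shared no base with a DKO region (7.95%, 4.60–13.4%), close to the 8.58% on the autosomes. On chromosome Y it was 14 of 14 (78.5–100%), with a median width of 750.5 bp and a median −log10 q of 3.07. The whole lists held 45 SmoM2 and 3 DKO H3K27ac regions on Y, 7 SmoM2 and 1 DKO H3K36me3 regions, and 8 SmoM2 and 17 DKO Gli2 peaks. DKO Gli2 peaks overlapped 4 of the 14 and SmoM2 Gli2 peaks 3. Both counts stood out because they come from regions left out of the choice. The sex of the animals is not stated in the labels, so sex and genotype cannot be told apart on Y.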

How the results depend on the processing

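Of 187 values under the first set of alternatives, 134 were counted as kept, 42 moved, 9 differences lost their call and 2 reversed. Differences were counted as kept when direction and call stayed, whatever their size. Those that reversed changed sign only, and neither had a call in the new direction. Of 47 values under alternatives chosen after seeing the data, 38 were counted as kept in the same way, 7 moved and 2 lost the call. The difference of SmoM2-only from other SmoM2 regions in the SmoM2 side within 50 kb stayed between 6.81 and 48.0 points. That side is the share with more H3K36me3 length in SmoM2 than in DKO tumours, among regions with unequal length. The difference in lying outside but within 10 kb of SmoM2 H3K36me3 (5 and 20 kb included) stayed between −36.6 and −13.2 points. Both kept their call in each alternative run on them. No cause of a change below was tested.

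With a minimum width of 200 bp there were 3000.0 regions, 0.533% with a DKO Gli2 peak, 44.1% on the SmoM2 side where H3K36me3 was called in a single genotype, and 31.8% on that side within 50 kb. A minimum of 1000 bp left 152 regions, 4.61% with a DKO Gli2 peak, 17.8% with SmoM2 and 16.4% with DKO H3K36me3. The differences from other SmoM2 regions that lost their call were −3.87 points for DKO Gli2, 2.73 for DKO H3K36me3 and 27.6 for the single-genotype side. SmoM2 regions with −log10 q of at least 3 left 62, at a median of 4587.5 bp from DKO acetylation. Of them 3.23% had a SmoM2 and 3.23% a DKO Gli2 peak, 8.06% SmoM2 and 6.45% DKO H3K36me3, and 25.8% lay outside but near SmoM2 H3K36me3. The SmoM2 side was 100.0% in a single genotype, but with so few regions that the interval ran from 20.7 to 100.0%. Within 50 kb it was 65.96% (51.7–77.8%). The differences were −3.99 (DKO Gli2), 0.073 (SmoM2 H3K36me3), −3.14 (DKO H3K36me3, reversed) and 67.1 (single-genotype side, −12.4 to 72.3). Each of these differences had an interval that includes 0. A DKO list shortened to the SmoM2 length gave 1454 regions at a median of 11403.5 bp. Counting regions less than 1 kb from DKO acetylation as other SmoM2 regions gave a median of 13269 bp and a side of 75.0%. The DKO H3K36me3 difference was then 0.948 points (−1.28 to 3.57, the call lost). Joining regions at most 1 kb apart gave 10224 bp.

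Counting H3K36me3 at the midpoint gave 10.02% (SmoM2) and 11.1% (DKO), 39.0% nearby, a side of 35.3% and a side difference of 9.46 points. Coverage of at least 50% of the region gave 9.70%, 10.7% and a side of 37.8%. H3K36me3 with −log10 q of at least 3 gave 5.38%, 8.02%, 15.8% nearby, a side of 12.1%, a side difference of −7.81 points (reversed) and 28.3% within 50 kb. A fold of at least 3 gave 10.97% for DKO, 31.3% nearby, 74.4% and 48.9%, and joined H3K36me3 regions 44.2% within 50 kb. DKO Gli2 within 1 kb gave 2.64% and within 10 kb 7.59%. In both classes limited to regions narrower than 1000 bp it was 0.879% (difference −0.91). Chosen after seeing the data, −log10 q under 2.5 gave 0% with SmoM2 Gli2 and a DKO Gli2 difference of −1.09. Both limits gave 0%, 0.742% and −0.86. Windows of 25 and 100 kb gave 39.9% and 30.2%, and nearness of 5 and 20 kb 24.7% and 45.5%.

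No paired analysis was possible because the 2 libraries of a group have no separate values. For the same reason leaving out each replicate was not run. Unknown depth limits every absence of a call.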
